A study of Homo sapiens with 6 samples.

Results

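The transcripts described here belong to ATF4 and 9 genes that ATF4 is known to switch on or to work with in the integrated stress response. They were measured in MDA-MB-231 cells before and after 12 h of dinaciclib. The members were chosen by gene name: every probe set that the platform annotation gives to ATF4, DDIT3, DDIT4, TRIB3, CHAC1, ASNS, PSAT1, PHGDH, CEBPB or CEBPG. This gave 10 probe sets, 1 for each of the 10 genes, among 22215 non-control probe sets on the array. Another probe set is annotated to 3 genes, of which PHGDH is one, and is described without a gene name.

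MDA-MB-231 is an established line of basal, triple-negative breast cancer, and dinaciclib is an inhibitor of cyclin-dependent kinases that include the kinases of RNA polymerase II. The baseline group had 3 arrays at 0 h (named E, 4 and 5) and the dinaciclib group 3 arrays at 12 h (F, 4 and 5). The labels describe RPMI medium with serum and antibiotics and a drug dissolved in DMSO. They name no dose, and whether DMSO was also added at baseline is not stated. There was no array of cells kept for 12 h without the drug, so time in culture, handling and solvent cannot be told apart from the drug. No label says that the arrays came from separate cultures, so a p-value measures only the spread between these arrays, which may be technical.

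The integrated stress response begins when a kinase that senses endoplasmic reticulum stress, viral RNA, lack of amino acids or lack of haem phosphorylates the initiation factor eIF2alpha. General translation then slows, while the mRNA of ATF4 is translated more, so much of the control of ATF4 lies in its translation and not in the level of its transcript. ATF4 is a basic leucine zipper transcription factor that pairs with C/EBP proteins on composite C/EBP-ATF elements. Its targets raise amino acid supply and, in prolonged stress, cell death genes. Every value below is a transcript level, and neither ATF4 protein nor eIF2alpha phosphorylation was measured.

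The composite element that ATF4 and C/EBP proteins bind was searched as the letters TGATGNAA on both strands of RefSeq promoter windows (GRCh38.p14), each of 250 bases before to 50 bases after an annotated start. All 10 genes had a window, 17 in all, and 3 of the 17 held the letters, 1 each of CHAC1, ASNS and CEBPG. Of all 35116 promoter windows in the table, 3.62% held them. The matches are shown because their genes gave different results: the CHAC1 transcript fell, the ASNS transcript did not pass the test, and the CEBPG transcript was higher on every dinaciclib array but just missed the threshold. Each line gives 60 bases in the direction of the gene, with the match in capitals.
CHAC1, chr15:40953236-40953295, plus strand, match on the opposite strand: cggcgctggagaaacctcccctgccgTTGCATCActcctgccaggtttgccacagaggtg
ASNS, chr7:97872443-97872502, minus strand, match on the gene's strand: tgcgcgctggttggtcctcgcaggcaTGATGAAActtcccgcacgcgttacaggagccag
CEBPG, chr19:33374045-33374104, plus strand, match on the gene's strand: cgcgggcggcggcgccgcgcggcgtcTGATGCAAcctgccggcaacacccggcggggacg
The match lay 209 to 202 bases before the start in CHAC1, 68 to 61 in ASNS and 42 to 35 in CEBPG, where the match belonged to 1 of 2 annotated starts. ASNS also had 2 annotated starts, of which 1 held the match. A match is a description of the letters and not evidence of binding, and its absence from a window says nothing of elements elsewhere, for instance farther upstream or within the gene.

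Of the 10 members, DDIT3 and CHAC1 fell, none rose at the threshold, and 8 did not pass the test. A probe set was called at an adjusted p under 0.05 (limma on log2(value + 1), adjusted over all 22215 probe sets). By that rule 17.2% of all probe sets were called, 13.4% lower and 3.86% higher after dinaciclib, so 2 lowered members of 10 are not far from the array as a whole. The median log2 change of the members was -0.24 and that of all probe sets -0.21. Values of the groups did not overlap in 3 of 10 members, lower in DDIT3 and CHAC1 and higher in CEBPG. The share without overlap among all probe sets was 36.6%, of which 26.5% were lower and 10.1% higher. The members thus held values in both directions, and none of the 10 was called as raised.

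**Figure D1:**
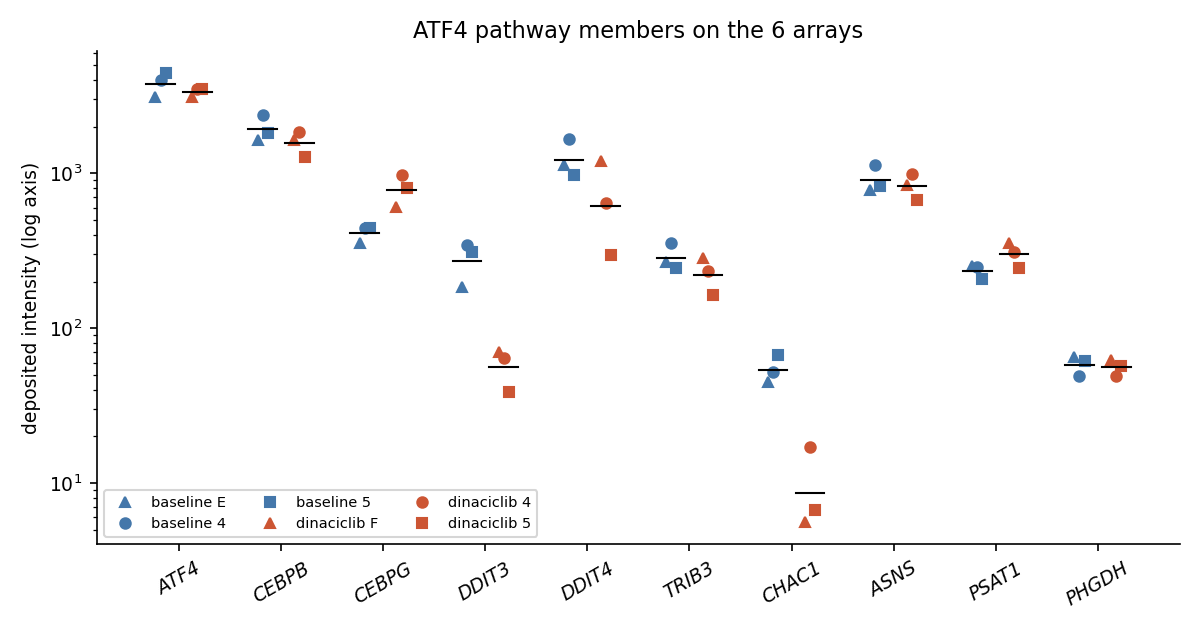
Deposited intensity (log axis) of each of the 10 members on the 6 arrays, baseline in blue and dinaciclib in orange, with triangles for the lettered arrays E and F, circles for arrays 4, squares for arrays 5 and a line at each group's geometric mean. DDIT3 and CHAC1 lay lower on all 3 dinaciclib arrays, CEBPG lay higher on all 3, and the groups overlapped in the other members; levels of different genes are not comparable.

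The transcription factors come first. ATF4 is the factor at the centre of the response. Its probe set read 3087, 4008 and 4429 on baseline E, 4 and 5, and 3112, 3517 and 3504 on dinaciclib F, 4 and 5. The dinaciclib values lay inside the baseline range. The log2 level was 11.89 ± 0.27 at baseline and 11.72 ± 0.10 after dinaciclib (SD, n = 3 per group). The log2 change was -0.17 with an adjusted p of 0.658 in limma, and its 95% interval ran from -0.69 to 0.35, so log2 changes of -1 and of 1 both lay outside it for the values as deposited. ATF4 was brighter than 96.8% of the probe sets on average, so dimness did not limit this value.

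DDIT3 encodes CHOP, a C/EBP-related factor that ATF4 induces and that promotes cell death in lasting stress. It read 185, 343 and 311 on baseline E, 4 and 5, and 70.6, 63.9 and 38.9 on dinaciclib F, 4 and 5. The highest dinaciclib array lay well below the lowest baseline array. The mean intensity was 4.84-fold lower after dinaciclib. On the log2 scale the level fell by 2.25, from 8.08 ± 0.48 to 5.83 ± 0.45 (SD, n = 3 per group), with an adjusted p of 0.0096 in limma and a 95% interval from -3.08 to -1.42. Only 1.78% of probe sets ranked at or below it in their change. DDIT3 passed in every one of the 16 alternative settings, with log2 changes from -2.69 to -1.79. The array differences were -1.38 from E to F, -2.41 from 4 to 4 and -2.97 from 5 to 5.

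CEBPG encodes C/EBP gamma, a partner that ATF4 binds on composite elements. It read 354, 445 and 446 on baseline E, 4 and 5, and 610, 982 and 799 on dinaciclib F, 4 and 5. All 3 dinaciclib values were above all 3 baseline values, opposite to DDIT3. The log2 level was 8.69 ± 0.19 at baseline and 9.61 ± 0.34 after dinaciclib (SD, n = 3 per group). The log2 change of 0.92 (95% interval of 0.33 to 1.52) missed the threshold by a small margin, with an adjusted p of 0.0506 in limma. It passed in 9 of the 16 alternative settings, among them quantile normalization (0.00751). It failed with spiked-control centring (0.84, adjusted p of 0.122), within the numbered arrays and when any 1 array other than dinaciclib F was left out. Without dinaciclib F the log2 change was 1.10 with an adjusted p of 0.0461. Across the settings its log2 change stayed between 0.76 and 1.37.

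CEBPB encodes C/EBP beta, another partner of ATF4 and itself a stress-responsive factor. Its intensities were 1643, 2387 and 1832 on baseline E, 4 and 5, and 1630, 1852 and 1265 on dinaciclib F, 4 and 5. The groups overlapped, with a log2 change of -0.30 (95% interval of -0.90 to 0.29, adjusted p of 0.478 in limma). As deposited, CEBPB thus lay below 0 and CEBPG above it, and neither was called.

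**Figure D2:**
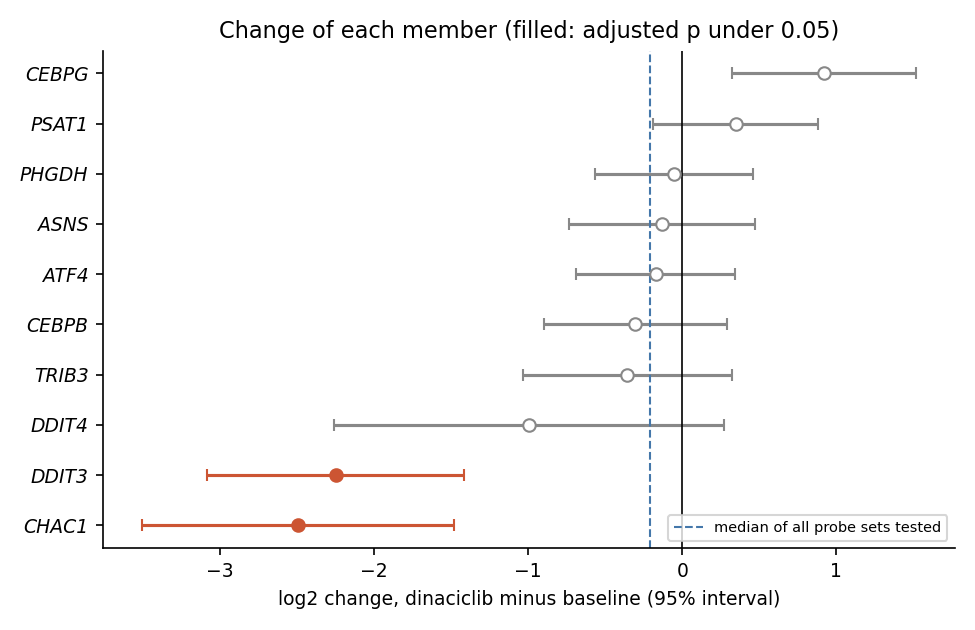
Log2 change (dinaciclib minus baseline) of each member with its 95% interval from limma, filled where the adjusted p was under 0.05, and a dashed line at the median change of all probe sets tested (-0.21). DDIT3 and CHAC1 stand at -2.25 and -2.50, CEBPG at 0.92, and the intervals of the other 7 members include 0.

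Of the stress effectors, CHAC1 passed the test and DDIT4 and TRIB3 did not, and differences between the 3 were not tested. CHAC1 encodes a gamma-glutamylcyclotransferase that degrades glutathione and is a much-used marker of ATF4 and CHOP activity. It read 44.7, 52.1 and 67.2 on baseline E, 4 and 5, and 5.63, 17.1 and 6.67 on dinaciclib F, 4 and 5. The groups were far apart, although the probe set was dim, brighter than only 39.7% of probe sets, and 2 of the 3 dinaciclib values were under 16. On the log2 scale CHAC1 fell by 2.50, from 5.78 ± 0.29 to 3.28 ± 0.78 (SD, n = 3 per group), with an adjusted p of 0.0125 in limma and a 95% interval from -3.51 to -1.48. Because of its low level the size of the fall depended on the value added before the logarithm, and with log2(value + 16) it was -1.47 and still passed. Within the 4 numbered arrays alone the fall was -2.35 and did not pass (adjusted p of 0.0725).

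DDIT4 encodes REDD1, which restrains the growth kinase complex mTORC1. It read 1134, 1655 and 977 on baseline E, 4 and 5, and 1205, 643 and 297 on dinaciclib F, 4 and 5. The numbered dinaciclib arrays were below every baseline array, whereas dinaciclib F lay inside the baseline range. A log2 change of -0.996 was accompanied by an SD of 1.01 among the dinaciclib arrays, against 0.39 at baseline. It did not pass (adjusted p of 0.264 in limma), and its 95% interval from -2.26 to 0.27 was the widest of the 10 members. Single-array differences were 0.09 from E to F, -1.36 from 4 to 4 and -1.71 from 5 to 5.

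TRIB3 encodes a pseudokinase that ATF4 and CHOP induce and that feeds back on ATF4. It read 266, 355 and 244 on baseline E, 4 and 5, and 286, 233 and 164 on dinaciclib F, 4 and 5. The groups overlapped, with F again the highest of the dinaciclib arrays. TRIB3 had a log2 change of -0.36 (95% interval of -1.04 to 0.32, adjusted p of 0.463 in limma). Its sign turned under quantile normalization (0.08) and median centring (0.10), so no direction is given for it.

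The amino acid enzymes did not pass the test. ASNS makes asparagine and is among the best-known ATF4 targets. It read 782, 1129 and 824 on baseline E, 4 and 5, and 843, 985 and 669 on dinaciclib F, 4 and 5. The groups lay over each other, and the log2 change was -0.13 (95% interval of -0.73 to 0.47, adjusted p of 0.783 in limma). ASNS and CHAC1, whose promoter windows both held the composite letters shown above, thus had values of -0.13 and -2.50.

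PSAT1 and PHGDH act in serine synthesis, PHGDH at the first step and PSAT1 at the next. PSAT1 read 252, 248 and 208 on baseline E, 4 and 5, and 354, 311 and 244 on dinaciclib F, 4 and 5. Only dinaciclib 5 lay within the baseline range. The log2 change was 0.35 (95% interval of -0.19 to 0.88, adjusted p of 0.359 in limma), and it passed under median centring alone among the settings tried (0.80, adjusted p of 0.038).

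PHGDH read 65.5, 48.8 and 61.7 on baseline E, 4 and 5, and 62.5, 49.2 and 57.0 on dinaciclib F, 4 and 5. The dinaciclib values lay inside the baseline range, and the log2 change was -0.06 (95% interval of -0.57 to 0.46, adjusted p of 0.900 in limma). The probe set annotated to 3 genes read 1255, 1708 and 1593 at baseline and 1532, 1719 and 1637 after dinaciclib in the same order. It had a log2 change of 0.11 and did not pass either (adjusted p of 0.769).

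Setting each member against ATF4 on the same array removes the scaling of that array from the comparison, which was chosen after the values were seen. The log2 difference of DDIT3 from ATF4 was -3.81 ± 0.26 at baseline and -5.89 ± 0.52 after dinaciclib (SD, n = 3 per group), a change of -2.08. That of CHAC1 changed by -2.32, from -6.11 ± 0.11 to -8.44 ± 0.73, and that of CEBPG by 1.09, from -3.20 ± 0.10 to -2.11 ± 0.26. In these 3 of 9 members the groups did not overlap, and each two-sided exact permutation p was 0.1, the smallest that 3 arrays against 3 allow. The remaining 6 overlapped, with changes from -0.82 for DDIT4 to 0.52 for PSAT1. The share of all probe sets without overlap on this scale was not computed. As deposited it was 36.6%, so 3 of 9 members without overlap does not set the members apart. These differences restate the separation of the groups seen above and do not show that ATF4 itself stayed the same.

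Lettered and numbered arrays differed in several members. From E to F, 6 members were higher and 4 lower. From 4 to 4, 3 were higher and 7 lower, and from 5 to 5, 2 were higher and 8 lower. Of all probe sets, 44.4% were higher from E to F, 37.7% from 4 to 4 and 36.2% from 5 to 5. ATF4, DDIT4, TRIB3 and ASNS had small positive differences from E to F, between 0.01 and 0.11, and negative ones in both numbered comparisons. Over all probe sets the median difference was -0.11 from E to F, -0.24 from 4 to 4 and -0.28 from 5 to 5. The lettered arrays also stood apart in the control probe set for the 5-prime part of 18S ribosomal RNA, which read 736 and 1155 on E and F and 8273 to 9061 on the numbered arrays. Its part in the member values was not tested. DDIT3 and CHAC1 were lower and CEBPG and PSAT1 higher in all 3 of these array comparisons.

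**Figure D3:**
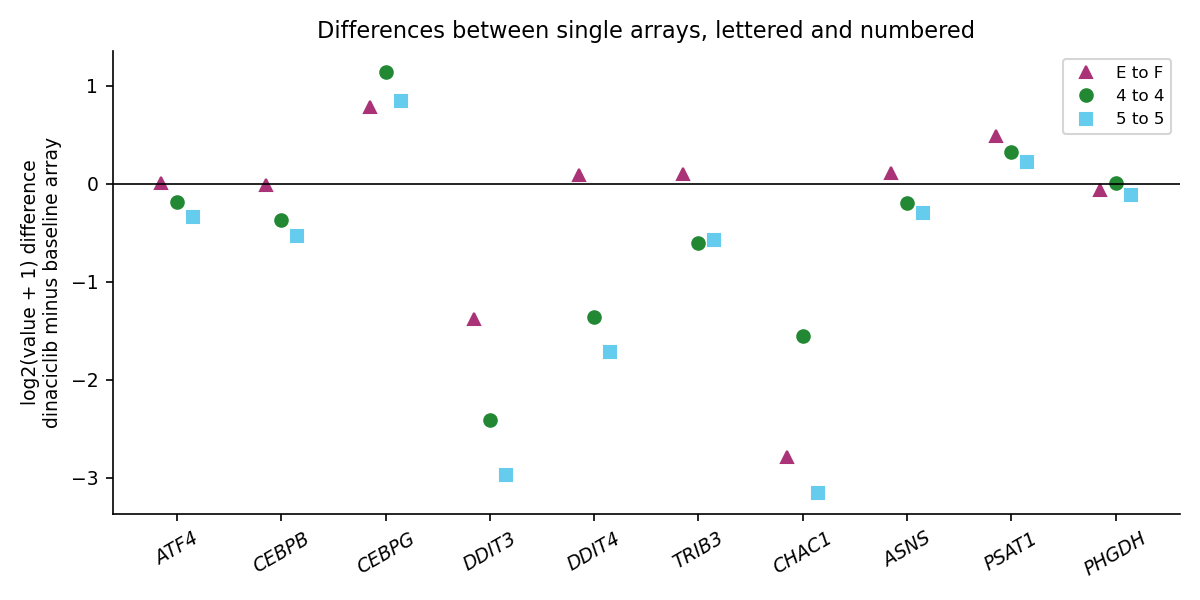
Difference in log2(value + 1) between single arrays, dinaciclib minus baseline, for E to F (triangles), 4 to 4 (circles) and 5 to 5 (squares), by member. DDIT3 and CHAC1 were below 0 in all 3, CEBPG and PSAT1 above 0 in all 3, and DDIT4 was near 0 only from E to F (0.09, against -1.36 and -1.71).

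The arrays differed in overall brightness, with median intensities of 53.3 to 66.2 at baseline and 40.6 to 46.8 after dinaciclib, and the deposited values were not brought to a common median. As deposited, 857 probe sets rose and 2971 fell. Quantile normalization moved the median change of all probe sets from -0.21 to 0.03, with 2130 rises and 2338 falls, and median centring moved it to 0.24, with 3487 rises and 1938 falls. With arrays centred on the spiked controls the median was -0.29, and 520 probe sets rose and 2418 fell. DDIT3 and CHAC1 fell under all of these scalings, and the sign of CEBPG, PSAT1 and DDIT4 did not turn. That of ATF4 and CEBPB turned under median centring, and that of TRIB3, ASNS and PHGDH under both quantile normalization and median centring. Relative to the median of all probe sets the change was 0.04 for ATF4, 0.08 for ASNS, 0.15 for PHGDH and -0.10 for CEBPB.

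**Figure D4:**
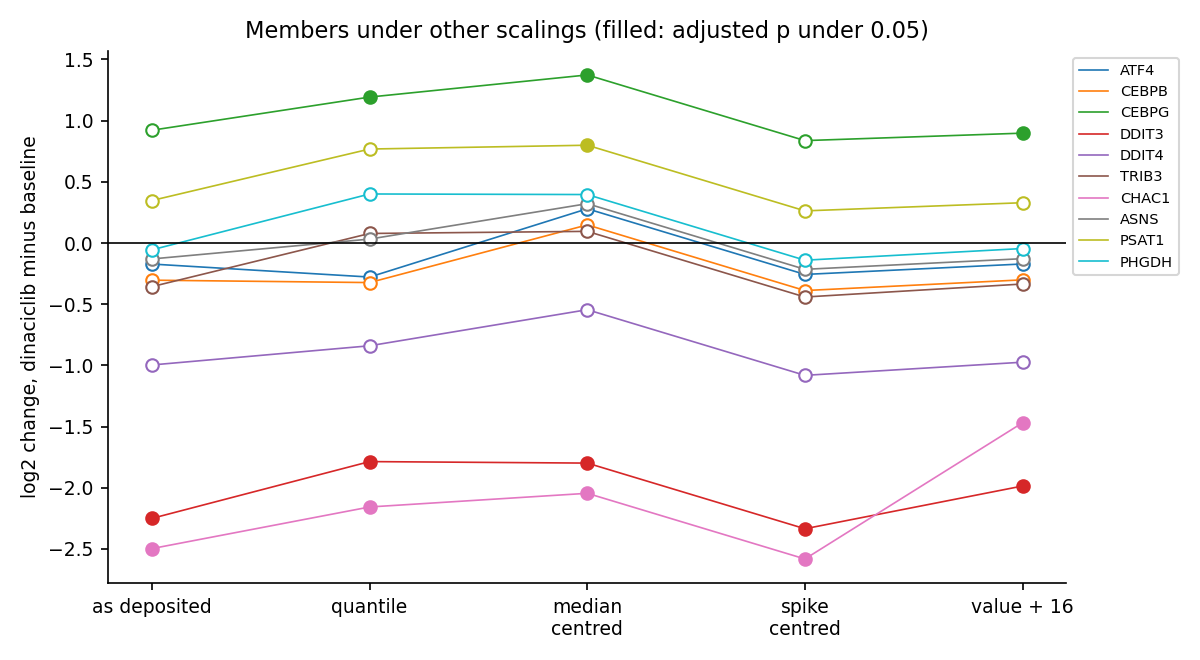
Log2 change (dinaciclib minus baseline) of each member as deposited, after quantile normalization, centred on the array median, centred on the spiked controls and with 16 in place of 1 added to the value, filled where the adjusted p was under 0.05. DDIT3 and CHAC1 are filled in all 5, CEBPG under quantile normalization, median centring and the value of 16, and PSAT1 under median centring (0.80).

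The genes whose profile over the 6 arrays was most like that of ATF4 were found as the smallest root mean square difference between profiles, each centred on its own mean log2 value, among 8513 genes with a mean intensity of at least 16. They were LIN7C (a difference of 0.04), SNRPB, PPP1CC, ZFAND1 and CD55 (0.05), and none of them passed the test. Of the members, CEBPB (0.25) and ASNS (0.25) were nearest to ATF4 and ranked 2714 and 2821. DDIT3 (1.09) and CHAC1 (1.24) ranked 8242 and 8351, near the end of the order. The measure grows as the change of a gene departs from that of ATF4, so the ranks of DDIT3 and CHAC1 restate their falls.

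Other genes of the pathway were read from 10 lists, of which 89 of 99 genes had a probe set of their own and the rest were not analysed here. Their 140 probe sets gave 15 rises and 15 falls, or 21.4% called against 17.2% of all probe sets. The median log2 change was -0.18. Of 30 called probe sets, 6 passed in every alternative setting that tested them, 24 lost the call in at least 1 and none changed sign. With 1 array left out, the count was taken anew over all 140 probe sets and can include some not called before. It was 24 without baseline E, 11 without baseline 4 and 9 without baseline 5. Without dinaciclib F it was 17, without dinaciclib 4 it was 10, and without dinaciclib 5 it was 11. Over all probe sets the count also fell, from 3828 to 3313 without baseline E, 1715 without baseline 4 and 1623 without baseline 5. There it was 2814 without dinaciclib F, 2093 without dinaciclib 4 and 2138 without dinaciclib 5. Single calls below thus rest on few arrays, and this loss is not particular to these lists.

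Upstream of ATF4, the kinases of eIF2alpha gave 1 fall and no rise among 5 probe sets of 3 genes. That is 20% called, against 17.2% of all probe sets. The kinase EIF2AK4, of the same list, had no probe set of its own and was not measured. EIF2AK2, the sensor of double-stranded RNA also called PKR, read 565, 768 and 652 on baseline E, 4 and 5 and 276, 326 and 287 on dinaciclib F, 4 and 5. All dinaciclib values were below all baseline values, a log2 change of -1.15 (standard error of 0.21, adjusted p of 0.015 in limma), which did not pass within the numbered arrays or without baseline 4, baseline 5 or dinaciclib 5. On its other probe set EIF2AK2 had a log2 change of -0.19 and did not pass. EIF2AK3, the endoplasmic reticulum stress sensor PERK, had a log2 change of 0.02 (adjusted p of 0.974).

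The subunits of eIF2 and of eIF2B gave 3 falls and no rise among 12 probe sets of 8 genes. Thus 25% were called as lower, against 13.4% of all probe sets. All 3 falls were of eIF2B subunits. EIF2S1, which encodes eIF2alpha, the substrate of the kinases, did not pass on its 3 probe sets (-0.63, -0.51 and -0.05). Those at -0.63 and -0.51 were lower on every dinaciclib array, and the groups overlapped in the one at -0.05. In this list 8 of 12 probe sets were lower without overlap, against 26.5% of all probe sets. EIF2B4 encodes a subunit of eIF2B, the exchange factor that phosphorylated eIF2alpha blocks. It read 538, 596 and 689 on baseline E, 4 and 5 and 148, 177 and 154 on dinaciclib F, 4 and 5. The groups were far apart, with a log2 change of -1.92 (standard error of 0.20, adjusted p of 0.00412 in limma), and its other probe set fell by 1.58 on the log2 scale. Both passed in every setting that tested them. EIF2B5, the catalytic subunit, fell by 0.92 on the log2 scale (adjusted p of 0.0226) and lost the call in 7 of 16 settings. The median of this list was -0.51, or -0.30 relative to all probe sets.

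The phosphatase side gave 2 rises, both of NCK1, an adaptor that brings a phosphatase to eIF2alpha, and no fall among 8 probe sets. This was 25% called, against 17.2% of all probe sets. NCK1 rose by 0.94 (adjusted p of 0.0246 in limma) and 0.82 on its 2 probe sets, of which each lost the call in 7 of 15 and 8 of 16 settings. PPP1R15A encodes GADD34, the inducible phosphatase subunit that ATF4 and CHOP switch on. Its 2 probe sets had log2 changes of 0.10 and 0.01 and did not pass (adjusted p of 0.791 and 0.977).

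The list of ATF4 partners and related basic leucine zipper factors gave 5 rises and no fall among 12 probe sets of 8 genes. That is 41.7% rises, against 3.86% on the whole array. CEBPD, which encodes C/EBP delta, read 196, 367 and 220 on baseline E, 4 and 5 and 564, 669 and 500 on dinaciclib F, 4 and 5 on its brighter probe set. That is a log2 change of 1.19 (adjusted p of 0.0396 in limma), and its dimmer probe set rose by 2.65 (adjusted p of 0.00624), from a mean intensity of 5.80 to one of 42.5. The first of these lost the call in 7 of 16 settings. The second passed in every setting that tested it, but the rise was smaller, 1.40, on the scale of log2(value + 16). ATF2 rose by 1.55 on 1 probe set (lost in 4 of 15 settings) and had a log2 change of -0.34 on the other, which did not pass. ATF3 and NFE2L2 complete this count and were named after their values were seen. ATF3, an ATF4 and stress target, read 133, 186 and 118 on baseline E, 4 and 5 and 394, 439 and 327 on dinaciclib F, 4 and 5. It was higher on every dinaciclib array, with a log2 change of 1.42 (adjusted p of 0.0141), lost within the numbered arrays and without baseline 5 or dinaciclib 4. NFE2L2, the oxidative stress factor NRF2, rose by 1.16 (adjusted p of 0.0156), lost without baseline 5, dinaciclib 4 or dinaciclib 5. The other measured genes of the list did not pass, and their groups overlapped. ATF5 had log2 changes of -0.29, -0.60 and 0.66 on its probe sets, NUPR1 -0.29, BATF 0.21 and CEBPA 0.09.

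In the list on ATF4 protein stability, EGLN1, a prolyl hydroxylase of the hypoxia response, rose by 1.41 (adjusted p of 0.0124 in limma). It passed in every setting, and whether it acts on ATF4 was not tested. CUL1, a scaffold of the ubiquitin ligase that marks ATF4, fell by 0.80 on the log2 scale (adjusted p of 0.0329), and lost the call in 9 of 16 settings. The other 4 of 6 probe sets of this list did not pass, so 33.3% were called, against 17.2% of all probe sets. Among those not past, EGLN3 had a log2 change of 0.19 with overlapping groups (adjusted p of 0.740 in limma).

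Amino acid synthesis gave 1 fall and no rise among 14 probe sets of 10 genes. Of these, 7.14% were called, against 17.2% of all probe sets. The fall was on 1 of 2 probe sets of PSPH, which makes serine after PHGDH and PSAT1 (-0.86, adjusted p of 0.0305 in limma), and the other had a log2 change of -0.28. It lost the call in 8 of 15 settings. MTHFD2, a mitochondrial folate enzyme and ATF4 target, had a log2 change of 0.19 and did not pass (adjusted p of 0.652). CTH, which makes cysteine, was higher on every dinaciclib array on both of its probe sets, with log2 changes of 0.75 and 0.75, and did not pass (adjusted p of 0.0791 and 0.0722). PCK2, the mitochondrial phosphoenolpyruvate carboxykinase, was lower on every dinaciclib array, with a log2 change of -1.03, and did not pass either (adjusted p of 0.0518).

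Amino acid transport held values in both directions, with 3 rises and 2 falls among 20 probe sets of 10 genes. The share called was 25%, against 17.2% of all probe sets. All 3 rises were of SLC7A11, the cystine transporter that ATF4 and NRF2 both induce. Its brightest probe set read 1038, 1119 and 1556 on baseline E, 4 and 5 and 2323, 2562 and 3042 on dinaciclib F, 4 and 5. The groups did not overlap, and the log2 change was 1.11 (adjusted p of 0.0261 in limma), beside 1.20 and 2.81 on its other probe sets, of which the last passed in every setting that tested it. The brightest lost the call in 6 of 16 settings. SLC1A4, a transporter of small neutral amino acids, fell on 1 of 4 probe sets (-2.15, adjusted p of 0.0259), which read under 16 on every dinaciclib array. Its log2 change was -1.14 with log2(value + 16), and it lost the call in 5 of 14 settings. The other SLC1A4 probe sets had log2 changes of -0.71, -0.64 and -1.10 and did not pass. Those at -0.71 and -0.64 were lower on every dinaciclib array, and the groups overlapped in the one at -1.10. SLC7A1, an arginine transporter, fell on 1 of 5 probe sets (-0.91, adjusted p of 0.0347), which lost the call in 8 of 16 settings, among them median and spiked-control centring. Its other probe sets had log2 changes of 1.20, 1.12, -0.07 and -0.13 and did not pass, and the one at 1.12 was higher on every dinaciclib array.

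Aminoacyl-tRNA synthetases and the tRNA exporter XPOT, which ATF4 also induces, gave 5 falls and no rise among 16 probe sets of 12 genes, or 31.2% lower against 13.4% of all probe sets. XPOT read 1861, 2456 and 2241 on baseline E, 4 and 5 and 881, 993 and 734 on dinaciclib F, 4 and 5. Its fall of 1.33 on the log2 scale (adjusted p of 0.0116 in limma) was lost only without baseline 5. AARS1, the alanyl-tRNA synthetase, fell by 1.26 (adjusted p of 0.0118), lost without baseline 4 or baseline 5. CARS1 and YARS1 complete the count. CARS1 had log2 changes of -1.22 and -1.04 on its probe sets, lost in 3 of 15 and 7 of 16 settings. YARS1 had a log2 change of -0.91, lost in 9 of 16 settings, among them median and spiked-control centring. GARS1 and TARS1 had log2 changes of 0.16 and 0.32 and did not pass. The median of this list, -0.34, was -0.13 relative to all probe sets.

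Stress effectors and secreted ATF4 targets gave 4 rises and 1 fall among 27 probe sets of 14 genes. The share called, 18.5%, was near the 17.2% of all probe sets. TXNIP, an inhibitor of thioredoxin and of glucose uptake, rose on all 3 of its probe sets by 0.73 to 0.90, each lost in 8 or 9 settings. VEGFA rose on 1 of 4 probe sets (1.39, adjusted p of 0.036 in limma), a call lost in 7 of 15 settings. Another VEGFA probe set was higher on every dinaciclib array but did not pass (1.06, adjusted p of 0.0507 in limma). VEGFA was not past the test on its brightest probe set (-0.34) or on the remaining one (-0.16). TNFRSF10B, the death receptor DR5 and a CHOP target, read 1634, 2239 and 1866 on baseline E, 4 and 5 and 431, 430 and 352 on dinaciclib F, 4 and 5 on its brightest probe set. The groups were far apart, with a log2 change of -2.23 (adjusted p of 0.00366) in a probe set that passed in every setting, while its other 2 probe sets, with baseline means of 51.1 and 59.3, had log2 changes of -0.02 and -0.03 and overlapping groups.

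The IRE1 and ATF6 branches of the endoplasmic reticulum stress response gave 1 fall and no rise among 20 probe sets of 14 genes. The share called was 5%, below the 17.2% of all probe sets. The chaperone HSPA5, also called BiP, read 5156, 6921 and 5243 on baseline E, 4 and 5 and 6180, 6522 and 6154 on dinaciclib F, 4 and 5. The groups overlapped, with a log2 change of 0.14 (adjusted p of 0.716 in limma). XBP1 had a log2 change of -0.55 and did not pass (adjusted p of 0.232). The fall was that of SDF2L1 (-0.92, adjusted p of 0.0493), lost in 9 of 16 settings.

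**Figure D5:**
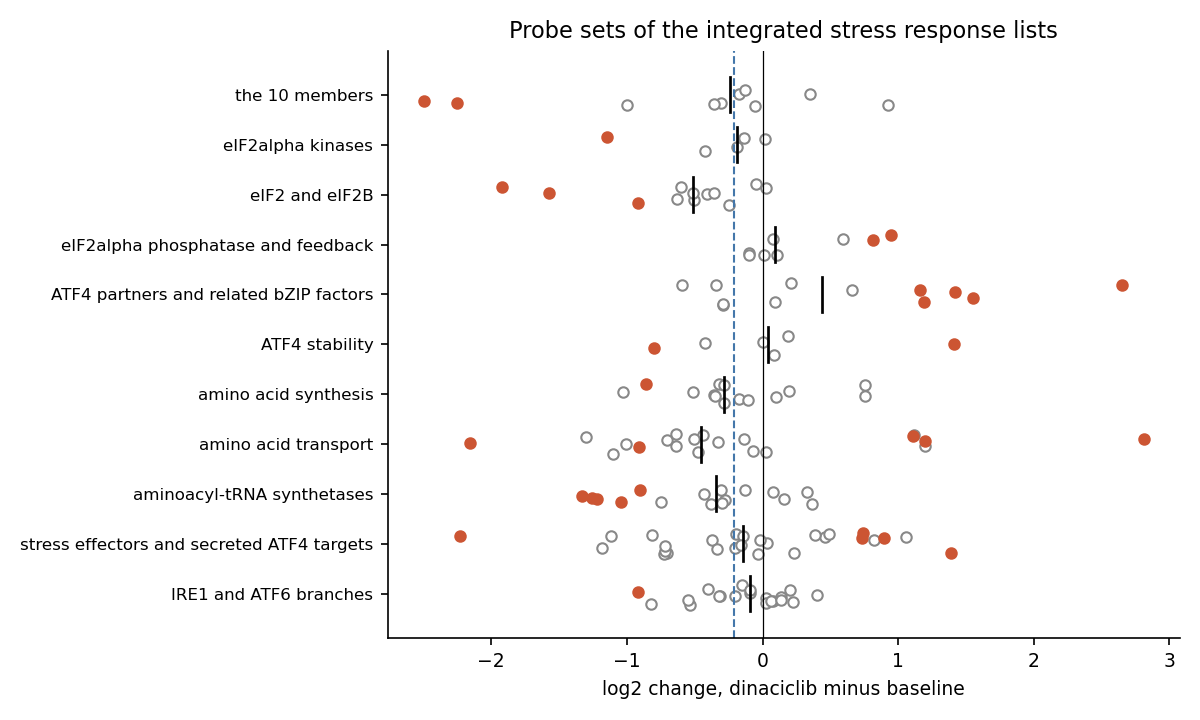
Log2 change (dinaciclib minus baseline) of each probe set of the 10 members and of the 10 further lists, filled where the adjusted p was under 0.05, with a black bar at each list's median and a dashed line at the median of all probe sets. Falls of DDIT3 and CHAC1 stand at the left of the members. The ATF4 partners and related leucine zipper factors have filled points only to the right, as does the phosphatase list. The tRNA synthetases have them only to the left, as do the eIF2alpha kinases, eIF2 and eIF2B, amino acid synthesis, and the IRE1 and ATF6 branches.

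The cell line label was checked against markers. VIM, CD44, AXL, MSN, CAV1 and ZEB1, expressed in this mesenchymal line, had 10.3 to 13.1 log2 units on their brightest probe sets, while SPARC of the same list had 3.45. The hormone receptors ESR1 and PGR and the epithelial cadherin CDH1 had at most 4.37 log2 units, but KRT8 (9.76), GATA3 (8.31), EPCAM (7.72) and ERBB2 (6.81), also listed as low in this line, were above that. Leukocyte and endothelial markers had at most 4.43 log2 units. Their summed intensities were 58.5 to 79.1 at baseline and 37.7 to 54.7 after dinaciclib for the leukocyte list, and 43.7 to 79.1 and 21.7 to 37.5 for the endothelial list, with 1 of 5 probe sets in each called as lower, and their part in the member values was not tested.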

How the data were processed

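RNA of 6 samples of MDA-MB-231 cells was measured on a single-channel biotin array. The authors deposited 1 intensity on a linear scale for each probe set of each array, and no header or label states its summarisation, background correction or scaling. The table's 6 columns all entered the fit.

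Gene names came from the platform annotation, by gene identifier in RefSeq (GRCh38.p14): 19064 had 1 gene, 1043 several and 2108 none, and 62 controls were left out. The values were taken as log2(value + 1) with no other normalization and tested in limma 3.58.1 (R 4.3.3, lmFit and eBayes, group as the only term), with Benjamini-Hochberg adjustment over 22215 probe sets. Adding 1 shrinks the fold changes of dim probe sets relative to the plain ratio. Such changes still depend on the value added: that of CHAC1 was -2.50 with 1 and -1.47 with 16. The number of arrays limits precision. No pair of arrays held identical values.

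The members and lists were chosen with earlier results of these data known. Named genes were all members, the 2 largest called rises and falls of each further list, and the 5 genes most like ATF4. The uncalled genes of the further lists, and ATF3, NFE2L2, CARS1 and YARS1, were named outside this rule after their values were seen. Alternatives were quantile normalization, median and spiked-control centring (45 control probe sets), log2(value + 16), removal of probe sets under the 40th percentile, a variance trend, a replicate block, a letter or number covariate, the numbered arrays alone, the brightest probe set per gene, and each array left out. The fit was tested on simulated data. Figures were drawn with matplotlib 3.10.9.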

Additional observations from a re-analysis of the deposited data

How the results depend on the processing

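Of the 10 members, 2 passed as deposited, 4 under median centring, 1 within the numbered arrays alone (DDIT3), and 2 to 3 when 1 array was left out. Over all probe sets 3828 passed, against 2170 within the numbered arrays and 1623 to 3313 with 1 array left out. Of the further lists 30 passed, against 17 with spiked-control centring, 10 within the numbered arrays and 9 to 24 with 1 array left out. All other settings gave counts within 1.5 times those as deposited.

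Signs turned only in values that had not passed, and the turned values did not pass either. Under median centring the log2 change was 0.28 for ATF4, 0.10 for TRIB3, 0.32 for ASNS, 0.40 for PHGDH, 0.15 for CEBPB, 0.28 for LIN7C, 0.25 for SNRPB, 0.35 for PPP1CC, 0.29 for ZFAND1 and 0.35 for CD55. Under quantile normalization it was 0.078 for TRIB3, 0.032 for ASNS, 0.40 for PHGDH, 0.13 for LIN7C and 0.023 for ZFAND1. Leaving out 1 array gave a range of -0.26 to 0.034 for ASNS (above 0 without baseline 4 or dinaciclib 5), of -0.18 to 0.036 for PHGDH (above 0 without baseline E or dinaciclib 4) and of -0.25 to 0.00093 for CD55 (above 0 without baseline 5). The cause was not tested. CHAC1 was left out of the test when dim probe sets were removed.

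Arrays 4 and 5 carry the same numbers in both groups, and E was set with F for the replicate block. Deviations from the group means correlated at 0.17 (E with F), 0.08 (4 with 4) and 0.08 (5 with 5), so not every correlation was above 0.1 and the arrays were not treated as paired. Each baseline array correlated best with its own partner, a hint from the data and not from the design, and E and F share no number. With the replicate block 3487 probe sets, 3 members (CEBPG at an adjusted p of 0.0427 in addition) and 30 probe sets of the further lists passed. The values carry no detection calls, so the low intensities of CHAC1 after dinaciclib have no measured background beside them.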
